A study of Mus musculus with 8 samples.

Results

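The oxysterol-binding protein-like (*Osbpl*) genes were examined in the livers of male mice fed a high fat diet (HFD), 4 labelled *Srsf10-kd* and 4 labelled *Ctrl*. Of the 45706 gene identifiers in the deposited count table, 10 are the *Osbpl* genes of the mouse, matched to their symbols through the GENCODE M21 annotation of GRCm38. All 10 were found. The family was taken up because *Osbpl11* has lower counts in the *Srsf10-kd* columns: it was chosen by the measured difference between the groups. The group difference of every member is therefore given here as a description. No p-value of a member is printed, and counts of members past a threshold stand only beside the same share of all genes.

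Mice of the strain labelled C56B6/J (C57BL/6J in the study's methods) received at 6 weeks of age an adeno-associated virus of serotype 2/8 by tail vein. In both groups the virus carried GFP and a mirE/shRNA, a microRNA-embedded hairpin, under the ubiquitous chicken β-actin promoter. The hairpin was directed against *Srsf10*, which encodes a splicing factor, in the group whose genotype is labelled Srsf10KD, and was a control hairpin in the group labelled WT. The diet, with 60% of its calories from fat, began 4 weeks after the injection in both groups and was given for 12 weeks. Whole liver was sequenced, 1 library per liver, so that a change in the number of cells of a type and a change in RNA per cell cannot be told apart.

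Proteins of this family share a lipid-binding domain that holds a sterol, phosphatidylserine or a phosphoinositide in a closed pocket. They carry these lipids across the narrow gaps where the endoplasmic reticulum (ER) touches another membrane, often handing phosphatidylinositol 4-phosphate back in exchange. Many of them reach the ER by binding the anchor proteins VAPA and VAPB, while a pair of them, ORP5 and ORP8, sit in the ER membrane through a tail of their own. In liver the family is studied for sterol sensing, lipid droplets and the export of lipid.

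Levels are given as CPM (counts per 1e+06 reads), made comparable between libraries by TMM normalization in edgeR. The libraries held 50456404 to 59697241 counted reads. *Srsf10* itself was at 34.3, 34.0, 41.0 and 36.5 CPM in the 4 *Srsf10-kd* livers and at 31.6, 33.7, 35.3 and 30.9 CPM in the *Ctrl* livers, with a log2 fold change of 0.15 (edgeR quasi-likelihood test, adjusted p = 0.378). The targeted RNA was therefore not lower in these counts. Whether each column carries the right label was not tested, and the groups are named by their labels alone. Libraries also differed in how levels followed transcript length. Each log2 level was taken as its deviation from the gene's mean over the 8 livers, so slopes and their signs are relative to the other livers. The slope of this deviation on log2 transcript length was 0.091 to 0.133 in *Ctrl* 1, 2 and 4. In *Srsf10-kd* 1, 2 and 4 it was -0.064 to -0.024. *Ctrl* 3, at -0.03, lay inside the range of the latter livers, and *Srsf10-kd* 3, at -0.181, lay apart. On the first principal component, with 44.8% of the variance, *Srsf10-kd* 3 was at 67.4 and the other livers at -41.8 to 11.5. Member values are for this reason also given without both livers numbered 3. They are given too after taking out, per library, the dependence of the deviation on transcript length (below called the length trend). Hepatocyte markers were abundant in all 8 livers, with *Alb*, which encodes albumin, at 45840 to 83140 CPM.

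The members *Osbpl11*, *Osbpl2* and *Osbpl3* were lower in every *Srsf10-kd* liver than in every *Ctrl* liver. The sequences upstream of the starts of these 3 genes are shown so that these members can be compared. They come from RefSeq on GRCm38.p6 and are written 5′ to 3′ on the strand of the gene. The stretch before *Osbpl11* is chr16:33184821-33185070 (plus strand) and that before *Osbpl2* is chr2:180119056-180119305 (plus strand). That before *Osbpl3* is chr6:50456202-50456420 (minus strand), which leaves out 31 bases that GENCODE counts as first exon. Capitals mark 5 short motifs, each searched on both strands. The GC box, bound by Sp1 and its relatives, is GGGCGG. The CCAAT box is named after its letters. An E-box bound by helix-loop-helix factors is CACGTG. The half-site of many nuclear receptors is AGGTCA. The last, known as the TATA box, was searched as TATAAA.
Osbpl11: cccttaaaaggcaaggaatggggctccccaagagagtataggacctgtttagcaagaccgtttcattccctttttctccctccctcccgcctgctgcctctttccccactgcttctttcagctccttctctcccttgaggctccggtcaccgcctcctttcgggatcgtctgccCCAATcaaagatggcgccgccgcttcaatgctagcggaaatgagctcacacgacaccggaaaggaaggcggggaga
Osbpl2: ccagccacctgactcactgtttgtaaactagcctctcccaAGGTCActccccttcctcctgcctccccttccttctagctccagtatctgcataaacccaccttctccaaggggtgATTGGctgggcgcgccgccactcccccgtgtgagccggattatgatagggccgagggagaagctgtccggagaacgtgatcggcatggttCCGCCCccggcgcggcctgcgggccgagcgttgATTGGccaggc
Osbpl3: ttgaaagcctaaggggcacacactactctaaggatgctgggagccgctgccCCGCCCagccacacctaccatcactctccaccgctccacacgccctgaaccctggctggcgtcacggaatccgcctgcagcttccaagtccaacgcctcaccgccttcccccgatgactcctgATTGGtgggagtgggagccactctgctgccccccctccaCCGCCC

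For each of the 8 members in the table, the stretch nearest to the GENCODE start was searched; the table lists 3 for *Osbpl5* and 2 each for *Osbpl6* and *Osbpl9*, and the others of these were not searched. Each of the 3 sequences shown held a CCAAT box, and *Osbpl2* held 2. Of the other members searched, *Osbpl5* alone held a CCAAT box. In the RefSeq table of 32851 such stretches of 250 bases, 33.8% hold a CCAAT box, so that its presence is common. A GC box was present 1 time before *Osbpl2* and 2 times in the stretch shown for *Osbpl3*, and was not found in that of *Osbpl11*, against 32.7% of all stretches with at least 1. GC boxes were also found for *Osbpl6* (3), *Osbpl8* (4) and *Osbpl9* (3), and not for *Osbpl5* and *Osbpl7*. An E-box was found for *Osbpl5* and *Osbpl8* alone of the 8 stretches searched, against 6.02% of all stretches. The half-site was found before *Osbpl2* alone of the 8 stretches searched, against 14% of all stretches. None of the 8 held the tandem half-sites known as DR1 and DR4, AGGTCA repeated after 1 or 4 bases of any kind, which 0.0335% and 0.0152% of all stretches hold. None of them held a TATA box, against 12.4%. The 8 stretches, of all members but *Osbpl1a* and *Osbpl10*, had 56% to 74.4% G and C in the 250 bases, above the median of 52.4% over the table. By the GENCODE starts, 192 of the 250 bases lie inside the gene for *Osbpl7*, 50 for *Osbpl8* and 31 for *Osbpl3*, so these are not wholly upstream.

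*Osbpl11* (ENSMUSG00000022807, chr16:33185071-33243312) encodes ORP11, which is found at the Golgi and late endosomes and pairs with ORP9. It was at 24.8, 29.2, 25.8 and 27.0 CPM in the *Ctrl* livers and at 18.2, 17.1, 16.4 and 16.7 CPM in the *Srsf10-kd* livers. The groups did not overlap, and the *Srsf10-kd* values lay closer together than the *Ctrl* values. *Ctrl* averaged 26.7 ± 1.91 CPM (SD, n = 4) and *Srsf10-kd* averaged 17.1 ± 0.779 CPM (SD, n = 4), so that the *Srsf10-kd* mean was 64.0% of the *Ctrl* mean. The fitted log2 fold change was -0.64 (standard error 0.09). It was -0.64 without both livers numbered 3, and -0.52 (standard error 0.09) with the length trend removed. None of the 75-base stretches of its transcripts occurs in an annotated transcript of another gene. Sequence outside annotated transcripts was not searched.

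*Osbpl3* (ENSMUSG00000029822, chr6:50293330-50456201) encodes ORP3, a VAP-binding member at contacts of the ER with the plasma membrane. It was at 20.8, 16.9, 17.5 and 23.9 CPM in the *Ctrl* livers and at 8.63, 11.7, 10.8 and 12.3 CPM in the *Srsf10-kd* livers. Every *Srsf10-kd* liver was below every *Ctrl* liver. *Ctrl* averaged 19.8 ± 3.25 CPM (SD, n = 4) and *Srsf10-kd* averaged 10.9 ± 1.62 CPM (SD, n = 4), or 55.0% of *Ctrl*. The fitted log2 fold change of -0.86 (standard error 0.15) was -0.91 without both livers numbered 3 and -0.62 with the length trend removed. *Osbpl3* has one of the longer annotated transcripts of the family, with 6494 bases.

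*Osbpl2* (ENSMUSG00000039050, chr2:180119306-180162680) encodes ORP2, a short member that brings cholesterol to the plasma membrane and is found on lipid droplets. It was at 29.3, 30.2, 32.5 and 28.6 CPM in the *Ctrl* livers and at 22.4, 25.2, 16.8 and 20.9 CPM in the *Srsf10-kd* livers. The groups did not overlap, and the lowest liver was *Srsf10-kd* 3. *Ctrl* averaged 30.1 ± 1.69 CPM (SD, n = 4) and *Srsf10-kd* averaged 21.3 ± 3.49 CPM (SD, n = 4), or 70.8% of *Ctrl*. The fitted log2 fold change of -0.50 (standard error 0.13) was -0.36 (standard error 0.09) without both livers numbered 3 and -0.52 with the length trend removed. *Osbpl2* has a transcript of 2805 bases, among the shortest in the family, and its value did not shrink with the length trend.

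**Figure D1:**
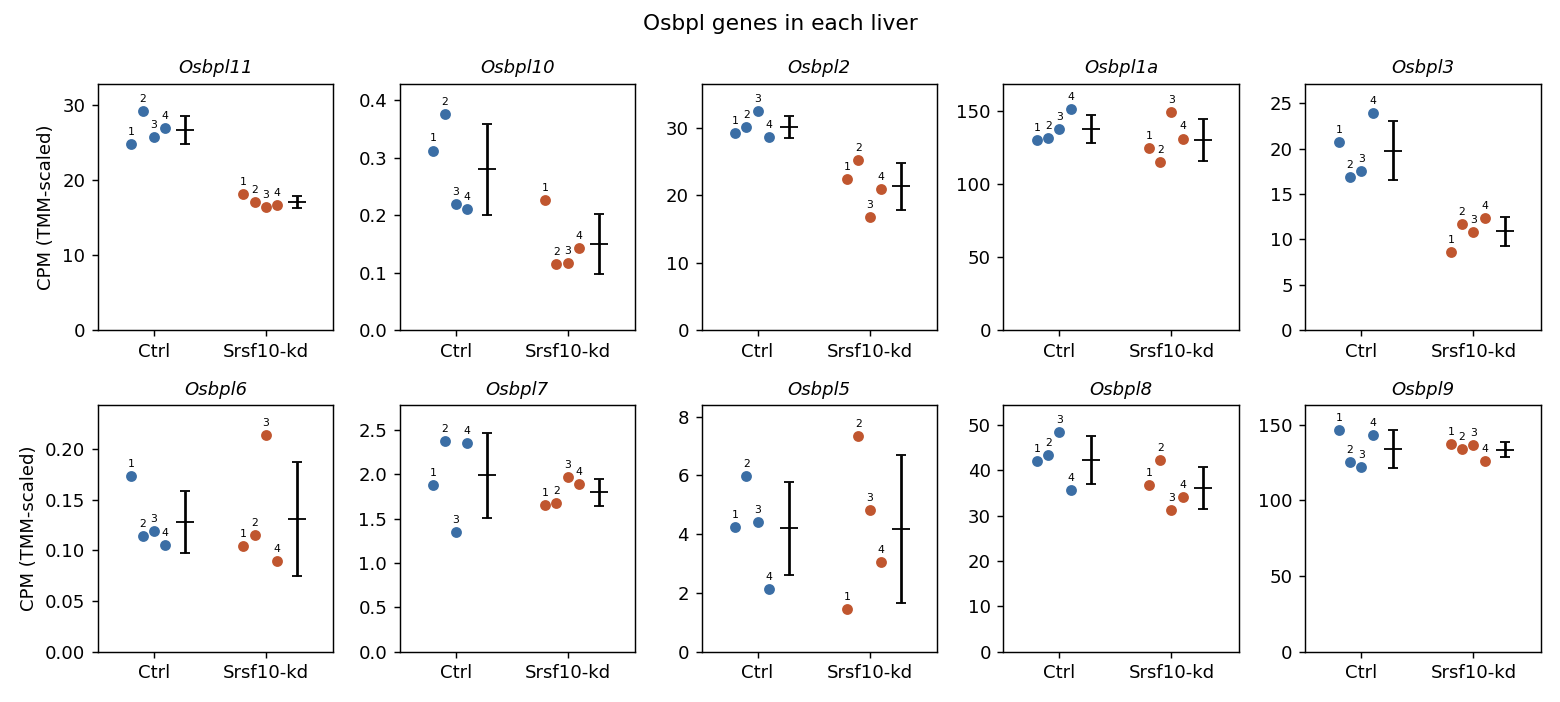
Level of each Osbpl gene (y axis, CPM after TMM scaling, each panel from 0 on its own scale) in the 4 Ctrl livers (blue) and the 4 livers labelled Srsf10-kd (orange); points are livers with their replicate number, and black bars are the mean ± SD. The orange points of Osbpl11, Osbpl2 and Osbpl3 all lie below the blue points, while those of the other members overlap them.

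The length slope of the libraries moved with the groups, and the levels of *Osbpl11*, *Osbpl2* and *Osbpl3* are plotted against it. Beyond the values with the length trend removed, given above for each gene, its part in these levels was not tested.

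**Figure D2:**
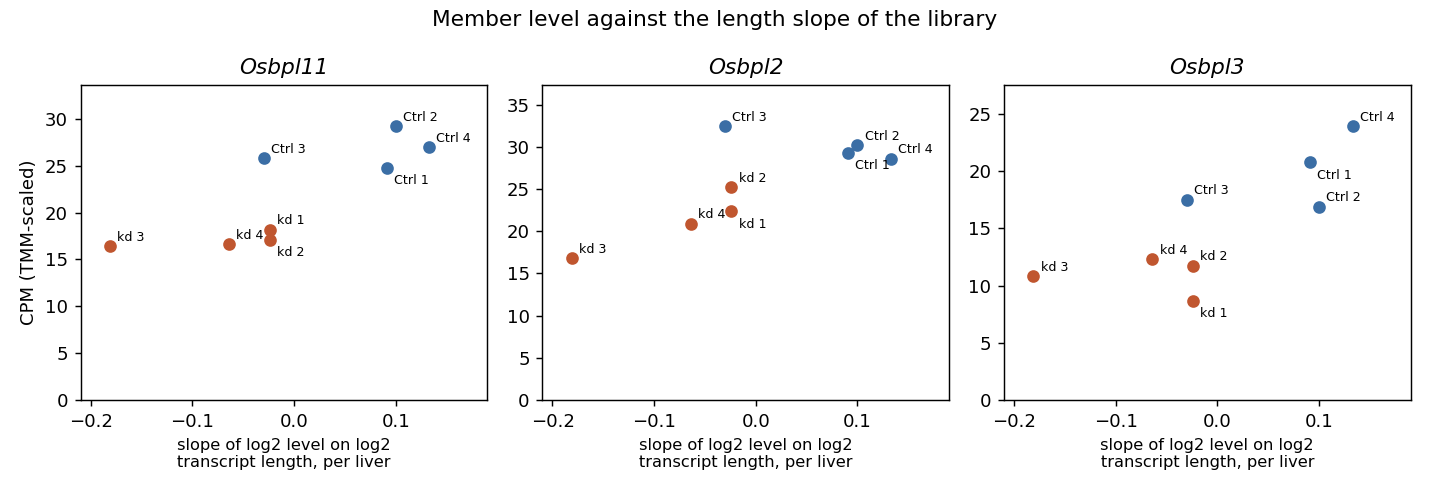
Level of Osbpl11, Osbpl2 and Osbpl3 (y axis, CPM from 0) against the slope of log2 level on log2 transcript length of the library (x axis); each point is 1 liver, Ctrl in blue and Srsf10-kd in orange. The slopes run from -0.181 (Srsf10-kd 3) to 0.133 (Ctrl 4), with Ctrl 3 at -0.03 and Srsf10-kd 1 and 2 at -0.024.

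Markers of other cell types were summed in each liver and set beside these values. Those of cholangiocytes, the cells that line bile ducts, came to 31.8 to 39.3 CPM in the *Ctrl* livers and 46.9 to 69.2 CPM in the *Srsf10-kd* livers, with no overlap. The largest part of this sum was *Spp1*, with means of 21.4 CPM in *Ctrl* and 32.3 CPM in *Srsf10-kd*. Of the 6 genes in that list, *Krt19* and *Spp1* were higher without overlap, against 6.73% of all genes tested. The groups overlapped in the other genes of the list. *Krt19* and *Spp1* were named after their values were seen, and 0 of the 6 had an adjusted p under 0.05 from edgeR with all livers. *Krt19* had an adjusted p of 0.116 in edgeR, 0.014 in edgeR without both livers numbered 3 and 0.00826 in DESeq2. For *Spp1* these were 0.151, 0.158 and 0.0701. With the length trend removed the log2 fold change of *Krt19* went from 0.73 to 0.56 (edgeR adjusted p = 0.192). That of *Spp1* went from 0.60 to 0.38 (edgeR adjusted p = 0.309). Their longest annotated transcripts have 1576 and 1507 bases. Leaving out both livers numbered 3 was a setting added after the data were seen, and over all genes it called 1342, against 11 with all livers. The part of the cholangiocyte markers in the *Osbpl* values was not tested. The sums for macrophages and Kupffer cells (205 to 292 CPM in *Ctrl*, 161 to 285 CPM in *Srsf10-kd*), endothelial cells (203 to 231 and 198 to 232 CPM), stellate cells (198 to 218 and 178 to 301 CPM) and lymphocytes (2.95 to 4.5 and 3.05 to 4.73 CPM) overlapped between the groups. Among the endothelial markers *Lyve1*, also named after its values were seen, was higher without overlap, at 17.9 ± 3.39 and 26.5 ± 5.22 CPM (SD, n = 4 each; edgeR adjusted p = 0.139, and 0.0368 without both livers numbered 3). No gene of any marker list was at 0 in all livers. The 9 hepatocyte markers found had a summed level of 88600 to 115000 CPM in *Ctrl* and 102000 to 121000 CPM in *Srsf10-kd*. Of them, *Apob* was lower without overlap, against 7.53% of all genes tested, and the others overlapped. *Apob* had an adjusted p of 0.115 in edgeR, 0.0222 in edgeR without both livers numbered 3 and 0.0027 in DESeq2. Its log2 fold change of -0.93 was -0.56 with the length trend removed (edgeR adjusted p = 0.224). Its longest annotated transcript has 13934 bases.

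*Osbpl10* (ENSMUSG00000040875, chr9:114978569-115232225) encodes ORP10, the closest relative of ORP11, which carries phosphatidylserine to the Golgi and also pairs with ORP9. It was near the limit of detection, with 18, 23, 11 and 12 reads in the *Ctrl* livers and 13, 6, 6 and 8 reads in the *Srsf10-kd* livers. The levels were 0.313, 0.376, 0.219 and 0.211 CPM against 0.227, 0.115, 0.117 and 0.142 CPM. The groups overlapped, because *Srsf10-kd* 1 was above *Ctrl* 3 and *Ctrl* 4. The fitted log2 fold change of -0.88 had a standard error of 0.33, the second widest in the family.

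*Osbpl9* (ENSMUSG00000028559, chr4:109061145-109202272) encodes ORP9, the VAP-binding partner of ORP10 and ORP11 at contacts of the ER with the Golgi. It was at 147, 125, 122 and 143 CPM in the *Ctrl* livers and at 137, 134, 137 and 126 CPM in the *Srsf10-kd* livers. All 4 *Srsf10-kd* values lay within the *Ctrl* range, and the *Srsf10-kd* mean of 134 ± 4.93 CPM (SD, n = 4) was 99.4% of the *Ctrl* mean. The log2 fold change was -0.01 (standard error 0.10). *Osbpl9* thus stood level while its binding partner *Osbpl11* was lower, as values set side by side. Part of its count is uncertain, as 13.4% of the 75-base stretches of its transcripts occur in other genes and its exons overlap *Nrd1* on the other strand over 633 bases.

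*Osbpl1a* (ENSMUSG00000044252, chr18:12755314-12941841) encodes ORP1, whose long form senses cholesterol on late endosomes through Rab7. It was at 130, 131, 137 and 151 CPM in the *Ctrl* livers and at 124, 115, 149 and 131 CPM in the *Srsf10-kd* livers. The groups overlapped, and *Srsf10-kd* 3 was the second highest of the 8 livers. A log2 fold change of -0.08 was fitted (standard error 0.11). The long and short forms of ORP1 come from the same gene and share 1 count here. Of its 75-base stretches 8.55% are shared with AC102055.1, a gene on the other strand.

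*Osbpl8* (ENSMUSG00000020189, chr10:111164752-111297249) and *Osbpl5* (ENSMUSG00000037606, chr7:143688762-143756985) encode the ER-anchored members, which move phosphatidylserine to the plasma membrane. *Osbpl8* was at 42.0, 43.3, 48.5 and 35.7 CPM in the *Ctrl* livers and at 36.8, 42.2, 31.2 and 34.2 CPM in the *Srsf10-kd* livers, with overlap. Its log2 fold change of -0.23 (standard error 0.13) was 0.00 with the length trend removed and -0.10 without both livers numbered 3. Its transcript of 7204 bases is the second longest of the family. *Osbpl5* was at 4.24, 5.97, 4.42 and 2.14 CPM against 1.45, 7.32, 4.805 and 3.06 CPM. It was the most variable member within groups, with both the highest and the lowest liver in the *Srsf10-kd* group. Its log2 fold change of -0.01 had a standard error of 0.45 and ran from -0.44 to 0.27 over the fits that each omit a liver.

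The relatives of *Osbpl3* in its branch of the family were low in liver. *Osbpl7* (ENSMUSG00000038534, chr11:97050628-97068904), which encodes ORP7, was at 1.87, 2.37, 1.35 and 2.35 CPM in the *Ctrl* livers and at 1.66, 1.67, 1.97 and 1.89 CPM in the *Srsf10-kd* livers. The *Srsf10-kd* values lay within the *Ctrl* range, and the log2 fold change was -0.15 (standard error 0.20). *Osbpl6* (ENSMUSG00000042359, chr2:76406508-76600647), which encodes ORP6, had 5 to 11 reads per liver and did not pass edgeR's filter on low counts. It was at 0.105 to 0.174 CPM in the *Ctrl* livers and at 0.0891 to 0.214 CPM in the others. The edgeR fit with that filter gave no fold change for it, and DESeq2 gave a log2 fold change of 0.00 (standard error 0.55). *Osbpl3* was accordingly the member of this branch with a sizeable level.

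Over the family, 9 of the 10 members were in the edgeR fit and *Osbpl6* was not. All 9 had a log2 fold change below 0, against 48.7% of the 15491 genes tested, with a median of -0.23 against 0.01. With the length trend removed the median of the members was -0.08. In that fit *Osbpl1a*, *Osbpl8* and *Osbpl9* were at 0.00 and *Osbpl5* was at 0.07, so the members were not all below 0. The median transcript length of the tested members was 3956 bases, against 3072 over all genes tested. The members without overlap between groups were 3 of 9, *Osbpl11*, *Osbpl2* and *Osbpl3*, against 7.53% of all genes tested that were lower without overlap. They were the same 3 without both livers numbered 3 and with the length trend removed. The share of all genes without overlap is not given for those settings. In edgeR's quasi-likelihood test 0 of the 9 had an adjusted p under 0.05, where 0.071% of all genes were called lower and 0% higher, and 4 had an unadjusted p under 0.05, as did 10.6% of all genes on the lower side. DESeq2 called 3, again *Osbpl11*, *Osbpl2* and *Osbpl3*, where it called 3.25% of genes lower. Since the contrast that chose the family gave these counts, nothing is read from them.

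**Figure D3:**
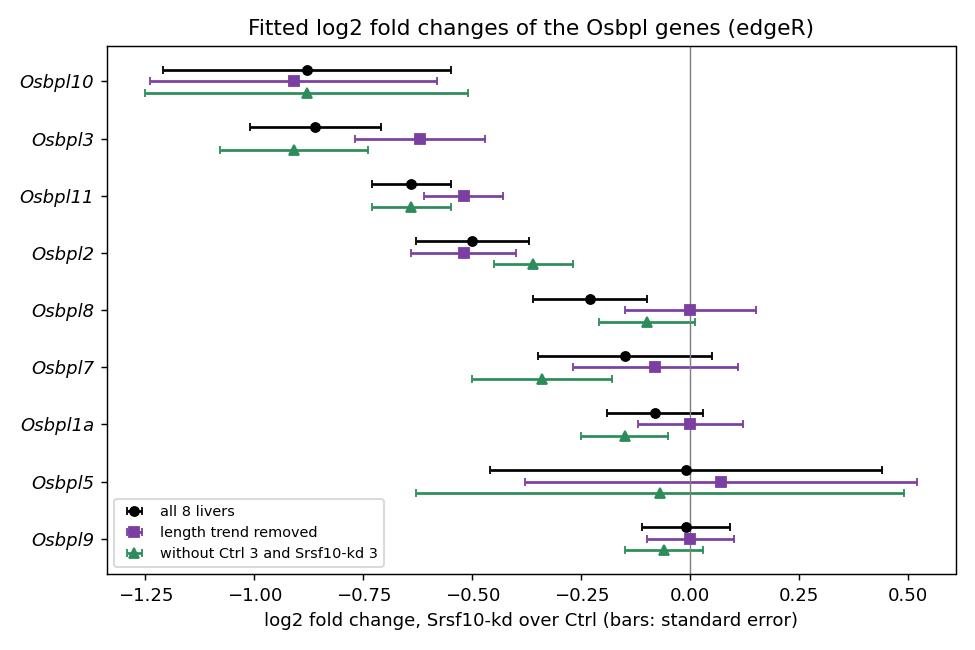
Fitted log2 fold change of the 9 members in the edgeR fit (x axis; negative values are lower in Srsf10-kd), with bars for the standard error; circles use all 8 livers, squares are the fit with the length trend removed, and triangles leave out Ctrl 3 and Srsf10-kd 3. Osbpl11, Osbpl2, Osbpl3 and Osbpl10 stay below 0 beyond their bars in all 3 fits, while Osbpl8 moves from -0.23 to 0.00 with the length trend removed.

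Summed over the 10 members, the family took 384.8 to 414.8 CPM in the *Ctrl* livers and 346.5 to 367.7 CPM in the *Srsf10-kd* livers. *Osbpl1a* and *Osbpl9* made up most of this sum in every liver, with 32.4% to 40.5% and 31.3% to 39.1%. *Osbpl11* took a mean of 6.73% in the *Ctrl* livers and 4.82% in the others, *Osbpl2* 7.60% and 6.02%, and *Osbpl3* 4.96% and 3.07%. The make-up of the family in reads thus moved away from these 3 members, as their values above require.

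Levels were compared between members per transcript length, in TPM, reads per base of the longest annotated transcript scaled to the same sum in every liver. *Osbpl9* was highest, with 83.7 ± 9.10 TPM (SD, n = 8), followed by *Osbpl1a* with 65.9 ± 6.40 TPM. *Osbpl2* came next with 18.1 ± 4.60 TPM, then *Osbpl8* with 10.7 ± 2.02 TPM and *Osbpl11* with 9.58 ± 2.81 TPM. *Osbpl3* was at 4.67 ± 1.82 TPM, *Osbpl5* at 2.05 ± 1.01 TPM and *Osbpl7* at 0.986 ± 0.221 TPM. *Osbpl10*, at 0.155 ± 0.0746 TPM, and *Osbpl6*, at 0.0303 ± 0.00803 TPM, were the lowest. *Osbp*, which encodes the founding sterol exchanger of the ER and Golgi, would stand between *Osbpl1a* and *Osbpl2* with 28.1 ± 5.49 TPM.

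Each pair of neighbours in this order was compared within the 8 livers by a two-sided exact sign-flip permutation test of the log2 ratio, adjusted over 9 pairs. The order was itself taken from these 8 livers, so the direction of each mean ratio was fixed before the test. The p-values therefore only describe how steady each step was. Livers of both groups were treated alike, although the group difference enters the pairs with *Osbpl11*, *Osbpl2* or *Osbpl3*. In 8 of the 9 pairs the ratio had an adjusted p under 0.05. *Osbpl9* exceeded *Osbpl1a* in 8 of 8 livers with a mean log2 ratio of 0.34 ± 0.15 (SD, n = 8, exact test, p = 0.00781, adjusted p = 0.0117), and 0.00781 is the smallest p that 8 livers allow. The widest step was from *Osbpl7* to *Osbpl10*, with a log2 ratio of 2.79 ± 0.62. *Osbpl8* and *Osbpl11* did not differ beyond their spread, with a log2 ratio of 0.19 ± 0.28, higher in 6 of 8 livers (exact test, p = 0.117, adjusted p = 0.117). This ratio spans both groups, with *Osbpl8* at 11.9 and *Osbpl11* at 12.0 TPM in *Ctrl* and at 9.50 and 7.12 TPM in *Srsf10-kd*. *Osbpl5* over *Osbpl7* was at 0.92 ± 0.83 and held in 6 of 8 livers (exact test, adjusted p = 0.0352). The order and its steps depend on the length used. With the median transcript length of each gene, *Osbpl11* over *Osbpl3* was at a log2 ratio of -0.04 and *Osbpl3* over *Osbpl5* at -0.12, neither past the test. With that length *Osbpl8* over *Osbpl11* was at 1.42 (exact test, adjusted p = 0.0117), *Osbpl10* over *Osbpl6* was at 0.60 (exact test, adjusted p = 0.121) and *Osbpl9* over *Osbpl1a* was at 1.57. With the union of exons *Osbpl8* over *Osbpl11* was at -0.02 and *Osbpl9* over *Osbpl1a* at 0.16.

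**Figure D4:**
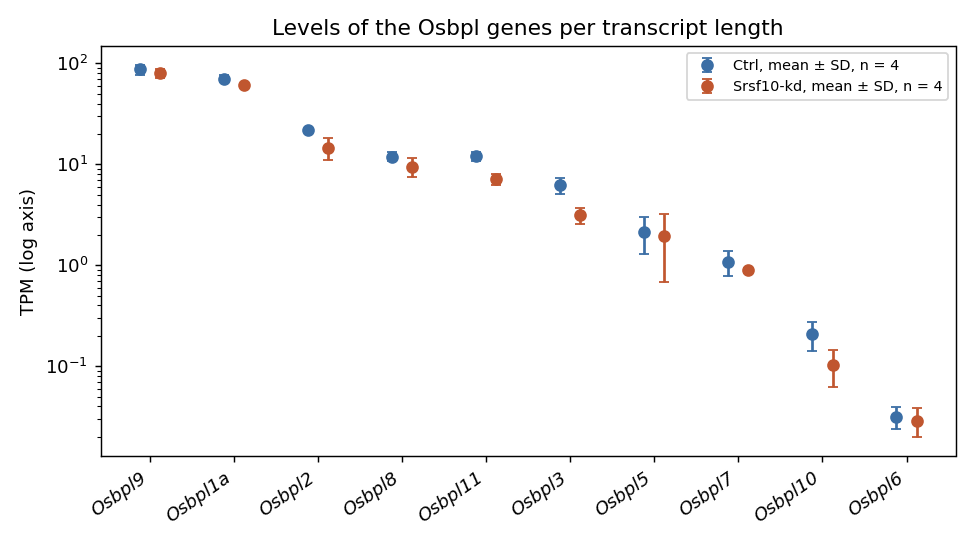
Level of each Osbpl gene per transcript length (y axis, TPM on a log axis) in the Ctrl livers (blue) and the livers labelled Srsf10-kd (orange), as mean ± SD of 4 livers, ordered by level. The members span from 83.7 TPM (Osbpl9, mean of 8 livers) to 0.0303 TPM (Osbpl6), and Osbpl8 and Osbpl11 stand side by side.

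The genes of the family differ widely in structure. The longest annotated transcript runs from 2766 bases (*Osbpl10*) to 8257 bases (*Osbpl6*), and the gene from 18277 bases (*Osbpl7*) to 253657 bases (*Osbpl10*). Of the 3 lower members, *Osbpl11* spans 58242 bases with a transcript of 4521 bases, *Osbpl2* spans 43375 bases, and *Osbpl3* spans 162872 bases. The longest intron of *Osbpl11* is its first, with 10073 bases, as it is for *Osbpl2* with 17509 bases, while that of *Osbpl3* is intron 2 with 17021 bases. The deposited counts hold 1 number per gene, so that reads within introns and the choice of polyadenylation site, which the study examined, were not analysed here.

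The genes outside the family whose levels over the 8 livers were most like those of *Osbpl11* were ranked by the root mean square difference of their log2 CPM, each centred on its mean, among 10960 genes with a mean log2 CPM of at least 1. The closest was *Edem3*, at a difference of 0.046 on the log2 scale, followed by *Asxl2* (0.053), *Ccdc186* (0.068), *Rapgef6* (0.075) and *Sp1* (0.08). *Edem3*, which acts in the disposal of misfolded glycoproteins in the ER, averaged 56.7 ± 4.05 CPM (SD, n = 4) in *Ctrl* and 37.3 ± 2.89 CPM (SD, n = 4) in *Srsf10-kd*. *Sp1*, which encodes a transcription factor that binds GC boxes, was at 43.0 ± 3.35 and 29.0 ± 1.24 CPM. All 5 were lower without overlap, with log2 fold changes of -0.62 to -0.55, as a gene with this pattern must be. Their transcripts have 6327 to 11934 bases, against 4521 for *Osbpl11*. Of the members, *Osbpl2* was nearest to *Osbpl11*, at 0.167 with 185 of the ranked genes closer, and *Osbpl5* was farthest, at 0.772.

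The proteins that work with the family were taken as 61 partner genes in 7 lists, of which 59 were in the fit. In edgeR's quasi-likelihood test 0 of 59 had an adjusted p under 0.05 in either direction. An unadjusted p under 0.05 was found for 10 on the lower side and 3 on the higher side (10.6% and 11.2% of all genes). DESeq2 called 6, all lower, where it called 3.25% of all genes lower and 2.02% higher. Without *Ctrl* 3, edgeR called 5 lower and 1 higher, and without *Srsf10-kd* 3 it called 1, *Vps13a*. Over all genes it called 544 and 64 in these fits, against 11 with all livers. The groups did not overlap in 8 partners, 5 of them lower and 3 higher, against 7.53% and 6.73% of all genes tested. The median log2 fold change of the 59 was -0.10, against 0.01 over all genes, and it was -0.10 again with the length trend removed.

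The founding members of the wider family overlapped between the groups. *Osbp* was at 75.7, 77.0, 55.9 and 65.6 CPM in the *Ctrl* livers and at 64.9, 61.2, 54.9 and 57.7 CPM in the *Srsf10-kd* livers. A log2 fold change of -0.20 was fitted (standard error 0.12, edgeR adjusted p = 0.344). *Osbp2*, a relative expressed mostly outside the liver, was at 0.518 ± 0.194 CPM (SD, n = 4) and 0.356 ± 0.179 CPM (SD, n = 4), with an adjusted p of 0.411 in edgeR.

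Among the ER anchors, *Vapa*, the receptor for the VAP-binding members, was at 79.3, 74.3, 77.3 and 80.7 CPM in the *Ctrl* livers and at 93.0, 83.5, 118 and 94.0 CPM in the *Srsf10-kd* livers. The groups did not overlap, on the side opposite to *Osbpl11*, and *Srsf10-kd* 3 was the highest liver. The log2 fold change of 0.32 had an adjusted p of 0.181 in edgeR and was 0.21 without both livers numbered 3. *Mospd1*, of the same domain family, was at 9.86 ± 0.247 and 11.1 ± 0.512 CPM (SD, n = 4 each), without overlap, with an adjusted p of 0.293 in edgeR and a log2 fold change of 0.02 with the length trend removed. Of 5 anchors, 0 passed the test.

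The supply of phosphoinositides and phosphatidylserine, the lipids that the family exchanges, was represented by 15 tested genes. Of these, 14 had a log2 fold change below 0, against 48.7% of all genes tested, and 0 passed the test. *Fam126a* and *Efr3a*, which hold the phosphatidylinositol 4-kinase at the plasma membrane, were lower without overlap. *Fam126a* was at 10.8 ± 1.04 and 8.72 ± 0.327 CPM (SD, n = 4 each; edgeR adjusted p = 0.164), and *Efr3a* at 57.5 ± 1.13 and 52.3 ± 1.88 CPM (adjusted p = 0.346), which changed sign to 0.03 with the length trend removed. The median of this list was -0.22, and -0.11 with the length trend removed.

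The 9 tested tethers and bridge proteins hold membranes together or span the gap between them. All 9 had a log2 fold change below 0, against 48.7% of all genes tested, with a median of -0.47. Their median transcript length was 5982 bases against 3072 over all genes tested, and with the length trend removed their median was -0.27. In edgeR 0 passed the test and 5 had an unadjusted p under 0.05, all lower, against 10.6% of all genes on the lower side. DESeq2 called 5, all lower, where it called 3.25% of all genes lower. *Vps13a*, a bridge-like lipid transporter, was at 11.6, 16.7, 13.4 and 12.0 CPM in the *Ctrl* livers and at 6.52, 6.52, 3.66 and 5.81 CPM in the *Srsf10-kd* livers, without overlap. Its log2 fold change was -1.25 (standard error 0.20, edgeR adjusted p = 0.0769, DESeq2 adjusted p = 4.54e-06). With the length trend removed it was -0.94 (edgeR adjusted p = 0.141), and its longest annotated transcript has 10838 bases. Without both livers numbered 3 the log2 fold change of *Vps13a* was -1.10 (edgeR adjusted p = 0.0101). That setting was added after the data were seen, and over all genes it called 1342, against 11 with all livers. *Pdzd8*, at 45.8 ± 0.991 and 33.0 ± 4.57 CPM (SD, n = 4 each), and *Esyt2*, at 35.4 ± 3.18 and 26.0 ± 2.99 CPM (SD, n = 4 each), were lower without overlap too. Their log2 fold changes were -0.47 and -0.45, with adjusted p of 0.116 and 0.119 in edgeR and 0.013 and 0.0203 in DESeq2. With the length trend removed both were at -0.27, with adjusted p of 0.243 and 0.3 in edgeR.

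In the 5 genes of endosomal sterol export 0 passed, and *Npc2*, which lifts cholesterol from the lysosome, was higher without overlap at 52.1 ± 3.68 and 66.5 ± 10.3 CPM (SD, n = 4 each; edgeR adjusted p = 0.166). The 10 transfer proteins of the START and Aster families and the 13 genes of sterol sensing and oxysterol synthesis overlapped between the groups in every case, with medians of -0.02 and -0.01 and 0 past the test.

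**Figure D5:**
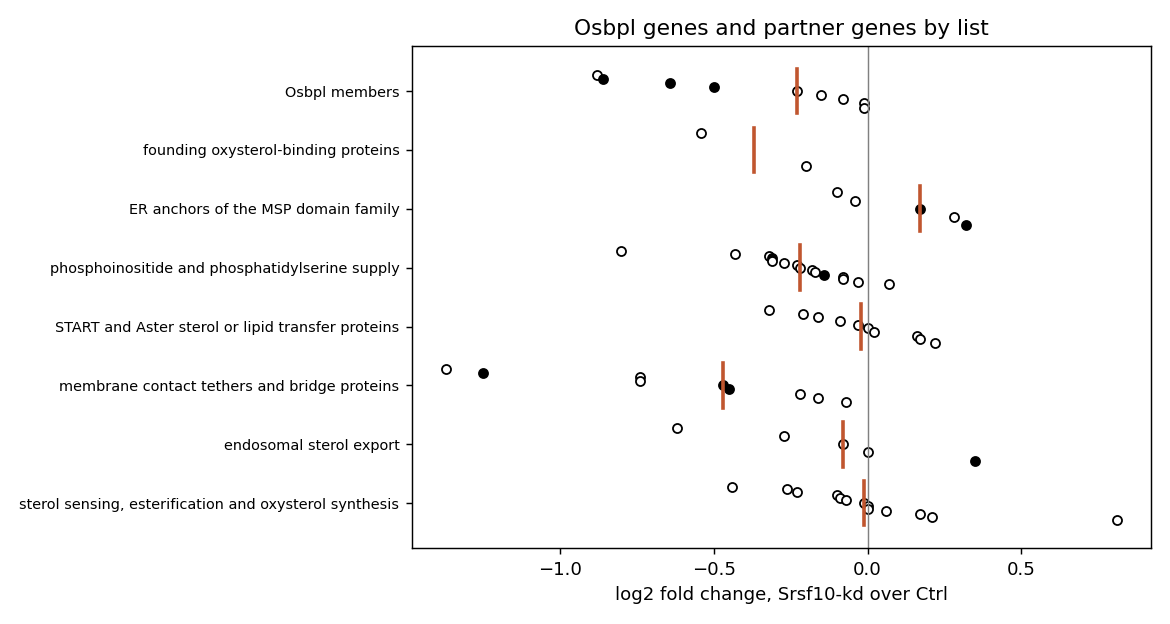
Log2 fold change (x axis; negative values are lower in Srsf10-kd) of the 9 tested Osbpl genes and of the 59 partner genes, a row per list; each point is a gene, filled where the groups of 4 livers do not overlap, and the orange bar is the median of the list. The tethers and bridge proteins lie farthest to the left, with a median of -0.47, and the ER anchors to the right, with a median of 0.17.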

How the data were processed

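Poly(A) RNA from 8 livers was sequenced from both ends with a directional kit. Alignment was to GRCm38 with STAR 2.7.7a, per the submitters' processing notes, and the authors deposited the raw counts per gene from STAR, 1 column per liver, without normalization. The annotation release and the strand column are not given in the sources used here, so genes that overlap another on the other strand are uncertain. Counts were analysed in R 4.3.3 with edgeR 4.0.16 (TMM, filterByExpr, quasi-likelihood fit on group, two-sided, Benjamini-Hochberg adjustment over 15491 genes, threshold 0.05) and, as the authors did, with DESeq2 1.42.0. Standard errors are the log2 fold change over the square root of F. Log2 levels used a prior count of 2. Transcript lengths, held by 15429 tested genes, and positions came from GENCODE M21. The trend of log2 level, centred on the gene's mean over the livers, on log2 transcript length was removed by lowess (span 0.5) within each library. Fits were tested on simulated data. Within a group the labels set the livers apart only by number. Each p-value of a group difference sets that difference against the spread between these livers. The members, lists and alternatives were chosen with earlier results of these data known. Named are all members, *Osbp*, *Osbp2*, *Srsf10*, partners past the test or among the 8 largest without overlap, and the 5 genes most like *Osbpl11*. The marker lists are of hepatocytes, macrophages and Kupffer cells, endothelial cells, stellate cells, cholangiocytes and lymphocytes.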

Additional observations from a re-analysis of the deposited data

How the results depend on the processing

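Over all genes 11 were called as designed, 824 with DESeq2, 1342 without both livers numbered 3, 46 without a filter on low counts, 59 with the replicate block, 544 without *Ctrl* 3 and 64 without *Srsf10-kd* 3. The count of members past an adjusted p of 0.05 was 0 as designed. It was 3 with DESeq2, 3 without both livers numbered 3 (a setting added after the data were seen) and 2 without a filter on low counts. It ran from 0 to 2 with each liver left out in turn, with 2 (*Osbpl3* and *Osbpl11*) without *Ctrl* 3 and 1 (*Osbpl11*) without *Srsf10-kd* 3. For partner genes the count of 0 on the lower side was 6 with DESeq2, 7 without both livers numbered 3 and 1 without the filter, and 0 to 5 with each liver left out, with 5 without *Ctrl* 3 and 1 without *Srsf10-kd* 3. On the higher side it was 1 without both livers numbered 3 and 0 to 1 with each liver left out, the 1 without *Ctrl* 3. The cause was not tested. With the replicate number as a replicate block, 0 members and 3 partner genes were called, all lower; the labels state no pairing, and same-numbered livers' deviations correlated at -0.18, 0.21, 0.27 and 0.22.

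The count of members lower without overlap was 3 to 4 with each liver left out, the 4 without *Srsf10-kd* 1, where *Osbpl10* was added. The share of all genes is not given for these fits. Smaller groups fail to overlap more easily, so nothing is read from these counts. *Osbpl11* ran from -0.68 to -0.60 with each liver left out, *Osbpl2* from -0.59 to -0.40 and *Osbpl3* from -0.93 to -0.76. With the length trend removed *Efr3a* reversed to 0.03. In the order of levels, 7 to 9 neighbour pairs passed with each liver left out. *Osbpl11* over *Osbpl3* (-0.04) and *Osbpl3* over *Osbpl5* (-0.12) reversed with the median transcript length and *Osbpl8* over *Osbpl11* (-0.02) with the union of exons, while with the median length *Osbpl8* over *Osbpl11* passed (1.42) and *Osbpl10* over *Osbpl6* no longer did (0.60). The low counts of *Osbpl6* and *Osbpl10* limit what these libraries can show for them.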

Other observations

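Partner genes named here were chosen after their values were seen. The other members of the VPS13 family of bridge-like lipid transporters were lower in mean like *Vps13a*, but their groups overlapped. *Vps13c* was at 34.1, 34.5, 16.7 and 38.8 CPM in the *Ctrl* livers and at 13.8, 17.4, 5.53 and 11.3 CPM in the *Srsf10-kd* livers, and *Ctrl* 3 alone lay inside the *Srsf10-kd* range. *Vps13d* was at 33.7 CPM in *Ctrl* 3 and at 95.5 to 129 CPM in the other *Ctrl* livers. Their transcripts have 11527 and 15849 bases. *Pi4ka*, the phosphatidylinositol 4-kinase of the plasma membrane, was at 45.2, 44.5, 28.5 and 61.5 CPM against 30.8, 30.3, 17.0 and 25.1 CPM, again with *Ctrl* 3 inside the *Srsf10-kd* range.

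*Ch25h*, which makes an oxysterol ligand, was low in all livers, at 0.556, 0.507, 0.995 and 0.439 CPM in the *Ctrl* livers and at 0.889, 0.999, 1.19 and 1.28 CPM in the others. *Ctrl* 3 was above *Srsf10-kd* 1, so the groups overlapped, and the adjusted p was 0.154 in edgeR with all livers. Without both livers numbered 3 it was 0.0272 in edgeR, but that setting was added after the data were seen and takes out the overlapping *Ctrl* liver. Over all genes that fit called 1342, against 11 with all livers.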
